A study of Mus musculus with 32 samples.

Results

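*Eraf*, listed by the files as NM_133245.1, encodes the erythroid associated factor, now called *Ahsp* or alpha-hemoglobin stabilizing protein. It was 1 of the 33012 noncontrol probes on the arrays and 1 of the 16620 probes tested, and it was selected on its own level over all 8 groups, read as the log2 normalized signal and the signal-to-noise ratio (S/N). The values below therefore describe it and carry no test.

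Bone marrow cells of 8 C57Bl/6 mice were cultured for 9 days and measured on 32 single-color Applied Biosystems arrays. Mice 1, 2, 3 and 4 were *Pparg*+/- *LysCre* and kept a *Pparg* allele. Mice 5, 6, 7 and 8 were *Pparg* fl/- *LysCre*, with a null allele and a loxP-flanked allele that Cre recombinase, expressed from the lysozyme promoter, removes in myeloid cells. All 8 mice thus carried the Cre and lacked at least an allele of *Pparg*, and no mouse with both alleles intact was among them. IL-4-treated macrophages were grown in 20 ng/ml M-CSF with 20 ng/ml IL-4, and immature dendritic cells (iDCs) in 20 ng/ml GM-CSF with 20 ng/ml IL-4. Each culture received vehicle (DMSO and ethanol) or 1 μM rosiglitazone (RSG), an agonist of the nuclear receptor PPARγ, giving 4 arrays per mouse and 4 mice per group. Between 13595 and 16683 probes were detected per array, where detected means an S/N of at least 3. *Pparg* itself was not analysed here, so the genotype labels were not checked against its level. Of the 33012 noncontrol probes, 319 were given a gene symbol here, so a gene without a named probe may still be on the arrays. Of 52 marker genes listed for macrophages, dendritic cells and other blood cells, 1 had a probe with a gene symbol (*Ear1*), so the cell type labels were not checked either.

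The protein encoded by *Eraf* is a small chaperone of red cell precursors. It binds free alpha-globin, the subunit of hemoglobin that is unstable until it pairs with beta-globin, and keeps it from precipitating and from generating reactive oxygen species. Its transcription in erythroid cells is driven by GATA1 and KLF1, and it is known mainly from that lineage rather than from macrophages or dendritic cells. In cultures measured in bulk, fewer cells of a type and less RNA per cell cannot be told apart.

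*Eraf* was highest in RSG-treated *Pparg*+/- *LysCre* iDCs, the sole group in which it was above background in all 4 mice. There the log2 normalized signal was 9.56 in mouse 1, 9.33 in mouse 2, 10.41 in mouse 3 and 9.81 in mouse 4, with S/N of 8.47, 6.25, 14.86 and 6.77. In the vehicle-treated iDCs of the same mice the level was 7.53, 7.27, 5.64 and 6.72, and the S/N 2.65, 4.00, 0.47 and 0.79. Every treated culture lay above every vehicle culture, and mouse 3 had both the lowest vehicle level and the highest treated level.

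Within a mouse, the level with RSG exceeded that with vehicle by 2.03 in mouse 1, 2.06 in mouse 2, 4.77 in mouse 3 and 3.09 in mouse 4. The mean log2 difference was 2.99 ± 1.29 (SD, n = 4 mice). With each undetected vehicle array held at no less than its lowest signal of any detected probe, it was 2.76 ± 0.89, or 6.79-fold. That alternative, added after seeing the data, raised only the vehicle value of mouse 3, from 5.64 to 6.54, and gives no minimum. The difference was positive in all 4 mice, and the mean was 2.39 without mouse 3 and 2.20 with an offset at the 10th percentile of the signals. Since only the array of mouse 2 measured *Eraf* above background in vehicle-treated iDCs, the other 3 vehicle values lie near or at the noise and the size of the difference is less certain than its direction. The deposited signals before normalization were 658, 739, 1326 and 735 with RSG, against 188, 163, 57.8 and 94.8 with vehicle.

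Over all 16620 tested probes the median difference of this contrast was 0.02. Among them 6.01% were called with RSG in *Pparg*+/- *LysCre* iDCs, which took a 1.5-fold change and an adjusted p below 0.05, and 10.7% had all 4 treated arrays above all 4 vehicle arrays. The levels that selected *Eraf* include both groups of this contrast, so these shares are background and not support for it. It passed the detection filter only through the group of RSG-treated *Pparg*+/- *LysCre* iDCs.

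**Figure D1:**
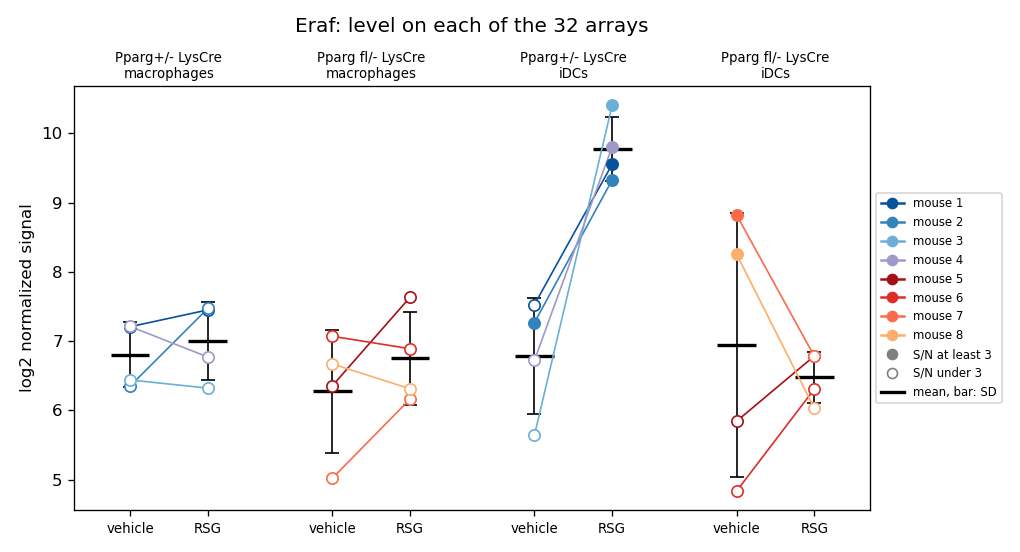
Log2 normalized signal of Eraf (vertical axis) on the 32 arrays, by genotype, cell type and treatment. Lines join the vehicle and RSG cultures of a mouse, filled points have an S/N of at least 3, and black bars give the mean and SD of 4 mice. The 4 RSG-treated Pparg+/- LysCre iDC cultures, at 9.33 to 10.41, lie above the other 28 arrays.

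The other 28 arrays held *Eraf* at a mean of 6.72 ± 0.87 (SD over arrays), and the highest of them lay 0.51 below the lowest RSG-treated *Pparg*+/- *LysCre* iDC array. Of all 32 arrays, 7 detected *Eraf*, all of them iDC arrays. In 6 arrays the S/N was above 1 and under 3. In 19 the S/N was 1 or less, and in each of these the listed signal was the standard deviation of the spot, which is a level of noise and no measurement. With a minimum S/N of 2 the detected arrays numbered 9, and with a minimum of 5 they numbered 5, and the 4 RSG-treated *Pparg*+/- *LysCre* iDC arrays were among them at each minimum. These minima were chosen after seeing the data.

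**Figure D2:**
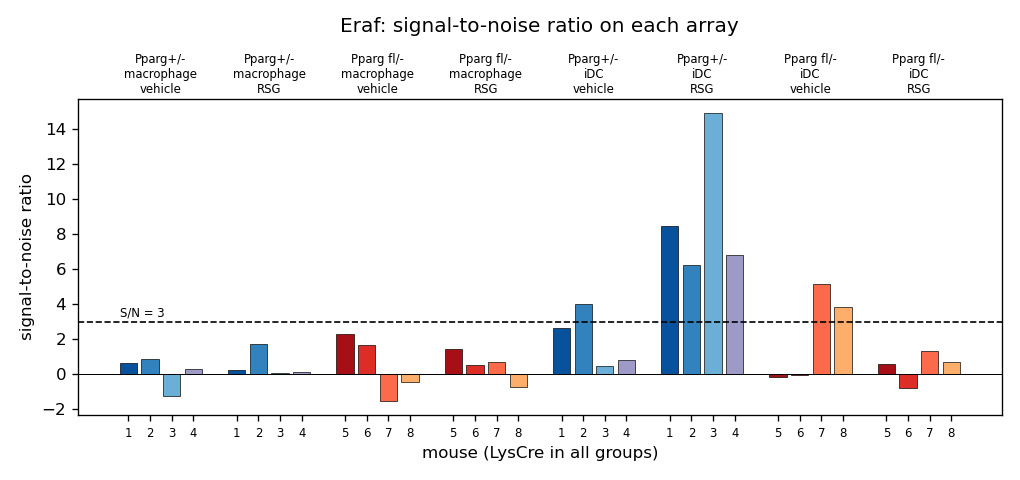
Signal-to-noise ratio of Eraf (vertical axis) on each array, with the mouse number on the horizontal axis and the group above. The dashed line marks an S/N of 3, which 7 bars pass, 4 of them in RSG-treated Pparg+/- LysCre iDCs.

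In *Pparg* fl/- *LysCre* iDCs the level did not move in a single direction with RSG. The vehicle-treated cultures read 5.85 in mouse 5, 4.84 in mouse 6, 8.82 in mouse 7 and 8.25 in mouse 8, with S/N of -0.17, -0.04, 5.14 and 3.81. Mice 7 and 8 were above background and mice 5 and 6 were at the noise. The RSG-treated cultures read 6.79, 6.31, 6.78 and 6.03, with S/N of 0.59, -0.76, 1.31 and 0.71, so that none of the 4 was above background.

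The difference within a mouse was 0.94 in mouse 5, 1.47 in mouse 6, -2.04 in mouse 7 and -2.23 in mouse 8, and its mean was -0.46 ± 1.94 (SD, n = 4 mice). The 2 negative values belong to the mice in which vehicle was measured above background, and the 2 positive values compare arrays that were both at the noise. The treated and vehicle groups overlapped, and the SD was larger than the mean, which turned to 0.06 without mouse 7 and 0.13 without mouse 8. The difference between these RSG differences in iDCs, *Pparg*+/- *LysCre* minus *Pparg* fl/- *LysCre*, was 3.45 with a pooled SD of 1.65 (n = 4 mice each). Without mouse 3 it was 2.86, without mouse 8 it was also 2.86, and without mouse 6 it was 4.09. It contains vehicle values of both genotypes and treated values of *Pparg* fl/- *LysCre* cells that lie below background, so its size is not a measured one.

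The mice were scanned on 4 days, with 2 mice of a genotype on each. Mice 5 and 6 shared a day and had RSG differences of 0.94 and 1.47, while mice 7 and 8 shared another and had -2.04 and -2.23. The split of the vehicle-treated *Pparg* fl/- *LysCre* iDCs therefore follows the scan day, and day and mouse cannot be told apart. In *Pparg*+/- *LysCre* iDCs the differences averaged 2.05 on the day of mice 1 and 2 and 3.93 on that of mice 3 and 4, so it was positive on both days.

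**Figure D3:**
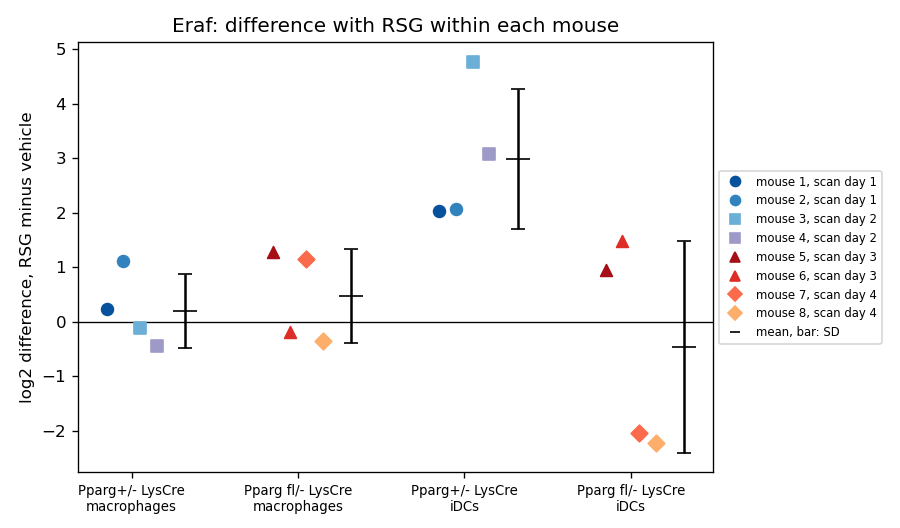
Log2 difference of Eraf between the RSG and vehicle cultures of a mouse (vertical axis), by genotype and cell type, with color for the mouse and symbol for the scan day. Bars give the mean and SD of 4 mice. Pparg+/- LysCre iDCs range from 2.03 to 4.77, and Pparg fl/- LysCre iDCs split into 2 positive and 2 negative values.

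Between genotypes, the difference lay in RSG-treated iDCs, and the vehicle-treated groups overlapped. With RSG, *Pparg*+/- *LysCre* iDCs had a mean of 9.78 ± 0.47 and *Pparg* fl/- *LysCre* iDCs a mean of 6.48 ± 0.37 (SD, n = 4 mice each), a log2 difference of -3.30 for *Pparg* fl/- *LysCre* against *Pparg*+/- *LysCre*. Because no array of RSG-treated *Pparg* fl/- *LysCre* iDCs was above background, the size of this difference is not a measured one. As an alternative, each dim array took the higher of its *Eraf* value and its lowest signal of any detected probe. The level was then 9.13-fold lower in *Pparg* fl/- *LysCre* cells. That floor is not the detection limit of the *Eraf* probe, so 9.13-fold is no minimum. With an offset at the 10th percentile of the signals the log2 difference was -2.39, which is smaller in size. The groups did not overlap, as held in the same direction for 8.99% of the tested probes. With vehicle the means were 6.79 ± 0.84 and 6.94 ± 1.90, a difference of 0.15 with overlapping groups. The RSG-treated *Pparg*+/- *LysCre* arrays enter this comparison, the comparison of treatments and that of cell types alike, so the 3 large differences share 4 arrays.

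Macrophages showed no *Eraf* above background. All 16 macrophage arrays had an S/N under 3, with a highest value of 2.31 in the vehicle-treated cells of mouse 5. In *Pparg*+/- *LysCre* macrophages the level was 7.21, 6.35, 6.44 and 7.21 with vehicle in mice 1 to 4, and 7.45, 7.47, 6.32 and 6.77 with RSG. The *Pparg* fl/- *LysCre* macrophages of mice 5 to 8 read 6.35, 7.07, 5.02 and 6.67 with vehicle, and 7.63, 6.89, 6.16 and 6.31 with RSG. Treated and vehicle groups overlapped in both genotypes, and no fold is given between groups that are all below background. The array of RSG-treated macrophages of mouse 1 was the only one of the 32 with a high quality flag on this probe.

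RSG-treated iDCs exceeded RSG-treated macrophages of the same *Pparg*+/- *LysCre* mice by 2.77 ± 1.01 on the log2 scale (SD, n = 4 mice), or 6.83-fold. The macrophage values in it are all below background, so this size is not a measured one and no minimum. With an offset at the 10th percentile of the signals this log2 difference was 2.10, and without mouse 3 it was 2.33. The groups did not overlap, as held with iDCs higher for 21.1% of the tested probes, since many probes differ between the cell types. The listed RSG difference in iDCs minus that in macrophages of these mice was 2.79 ± 1.77 (SD, n = 4 mice), 2.09 without mouse 3 and 3.40 without mouse 2. Since all 8 macrophage values in it are below background, it adds no measured size to the iDC difference. In vehicle-treated cells the cell types overlapped, with a difference of -0.01 ± 0.78 in *Pparg*+/- *LysCre* mice and 0.66 ± 2.61 in *Pparg* fl/- *LysCre* mice. The latter mean joins -0.51 in mouse 5 and -2.23 in mouse 6, scanned on the same day, with 3.80 in mouse 7 and 1.58 in mouse 8, scanned on another and the mice whose iDCs detected *Eraf*, and it was -0.39 without mouse 7.

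Ordered by mean level, RSG-treated *Pparg*+/- *LysCre* iDCs came first at 9.78, and the gap of 2.77 to the next group was larger than the SD of either. The 7 following groups ran from 7.01 to 6.28, and the widest gap between neighbors was 0.27, against SDs of 0.37 to 1.90. Only 3 of their 28 arrays detected *Eraf*, so their order is one of values mostly at the noise and carries no ranking of expression.

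The detection pattern of *Eraf* was shared by few probes. Of the 33012 probes, 12707 were detected on all 4 arrays of RSG-treated *Pparg*+/- *LysCre* iDCs, and 175 of these on at most 1 of the 4 arrays of vehicle-treated *Pparg*+/- *LysCre* iDCs. Among the 175, *Eraf* and 4 others had a symbol, namely *Aldh3a1*, *Lgals7*, *Lhx2* and *Zfp945*. On no array of RSG-treated *Pparg* fl/- *LysCre* iDCs were 17 of the 175 detected, and 3 of those 17 on no macrophage array either. In RSG-treated against vehicle-treated *Pparg*+/- *LysCre* iDCs, these 3 differed by 2.99 (*Eraf*), 4.42 (the gene model mCG14298.1) and 2.68 (the gene model mCG140638) on the log2 scale. Of the vehicle-treated *Pparg*+/- *LysCre* iDC arrays, *Eraf* was detected on 1 and each gene model on 0. The sizes of these differences rest on values below background and are not measured ones. Neither gene model was detected in vehicle-treated *Pparg* fl/- *LysCre* iDCs, where *Eraf* was detected in mice 7 and 8. The steps of this count were taken from the pattern of *Eraf* and are a description.

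Alpha-globin, the client of the chaperone, had no called change with RSG in iDCs of either genotype. Of 82 erythroid, heme and iron genes listed, 1 had a probe with a symbol, *Hba-a1*, which encodes an alpha-globin chain. *Hba-a2* is nearly identical in sequence, so the probe may read both genes. The other globins, the erythroid transcription factors and the enzymes of heme synthesis on that list were not analysed here. Only 319 of the 33012 probes were given a symbol, so those genes may have probes that were not named. In *Pparg*+/- *LysCre* iDCs *Hba-a1* read 9.35, 9.76, 9.98 and 10.88 with vehicle and 8.43, 8.28, 10.31 and 9.63 with RSG in mice 1 to 4. The difference within a mouse was -0.92, -1.48, 0.33 and -1.25, so it was below 0 in the 3 mice other than mouse 3. The limma log2 change was -0.83 ± 0.78 (SE, n = 4 mice, adjusted p = 0.612), and 6.01% of the probes were called in this comparison.

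*Hba-a1* was detected on 18 of 32 arrays, and on 2 of the 4 arrays where *Eraf* was highest. In *Pparg* fl/- *LysCre* iDCs it read 8.57, 10.38, 11.09 and 9.59 with vehicle in mice 5 to 8, and 7.23, 11.00, 10.77 and 10.37 with RSG, a limma log2 change of -0.06 ± 0.78 (SE, n = 4 mice, adjusted p = 0.993). In the vehicle-treated cultures, mouse 7 was highest and mouse 5 lowest, and mice 6 and 8 lay between. *Eraf* was detected there in mice 7 and 8 and at the noise in mice 5 and 6. The share of called probes in that comparison was 0.692%.

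*Hba-a1* was highest in *Pparg* fl/- *LysCre* macrophages, where *Eraf* was below background. With vehicle it read 8.59 in mouse 5, 12.43 in mouse 6, 12.67 in mouse 7 and 12.21 in mouse 8, and with RSG 8.67, 12.19, 12.47 and 12.15. In *Pparg*+/- *LysCre* macrophages it read 7.92, 8.27, 8.13 and 8.22 with vehicle and 8.22, 7.92, 7.28 and 8.32 with RSG, and none of these 8 arrays detected it. Mouse 5 stood apart from mice 6, 7 and 8 in both treatments and was not detected at an S/N of 3 in either macrophage culture.

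The genotype effect in vehicle-treated macrophages was 3.34 ± 0.89 on the log2 scale (SE, n = 4 mice each), or 10.1-fold higher in *Pparg* fl/- *LysCre* cells, and it was not called by limma (adjusted p = 0.0761), in a comparison that called 0.156% of the probes. Its size is uncertain, since the *Pparg*+/- *LysCre* values are undetected ones. With the mouse as a random replicate block the adjusted p was 0.0427, and without mouse 5 the change was 4.30 with an adjusted p of 8.34e-07. With a random block for the scan day it was 0.121, and without any other single mouse it was 0.155 to 0.224. Each day held mice of 1 genotype. The groups did not overlap, as held with *Pparg* fl/- *LysCre* higher for 5.83% of the tested probes. In vehicle-treated iDCs the genotypes differed by -0.08 ± 0.78 (SE, adjusted p = 0.967 by limma), where 2.83% of the probes were called.

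Between cell types, vehicle-treated *Pparg*+/- *LysCre* iDCs had more *Hba-a1* than macrophages of the same mice by 1.85 ± 0.86 on the log2 scale (SE, adjusted p = 0.0903 by limma), or at least 3.62-fold, and 28.9% of the probes were called. With the mouse as a replicate block the adjusted p was 0.000482, without mouse 5 it was 0.000355, with only the arrays compared 0.00169, by the methods' t-test 0.00581, with the scan day as a block 0.0544, and without any other single mouse 0.0914 to 0.275. Mouse 5 was not among the mice compared. Leaving it out kept the change at 1.85 and lowered its SE to 0.38, through the shared spread. In *Pparg* fl/- *LysCre* mice the difference was -1.57 ± 0.86 (SE, adjusted p = 0.160 by limma), with 27.6% of the probes called, and the adjusted p was 0.00232 with the block, 0.000574 without mouse 5, 0.107 with the scan day as a block, and 0.191 to 0.420 without any other single mouse. Across the 8 comparisons limma called *Hba-a1* in 0. Before adjustment, p was below 0.05 in 2 of them, and the methods' t-test called 1 once its p-values were adjusted by Benjamini-Hochberg.

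**Figure D4:**
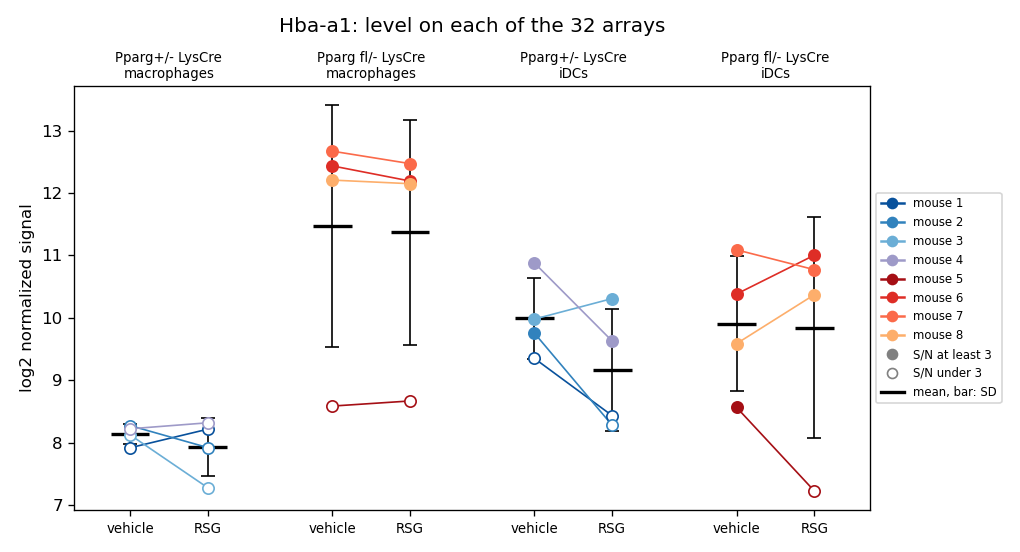
Log2 normalized signal of Hba-a1 (vertical axis) on the same 32 arrays, drawn as for Eraf. Macrophages of Pparg fl/- LysCre mice 6, 7 and 8 lie at 12.15 to 12.67, mouse 5 at 8.59 and 8.67, and the 4 RSG-treated Pparg+/- LysCre iDC cultures at 8.28 to 10.31.

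*Ear1*, an eosinophil-associated ribonuclease whose family has several closely related members, was the marker of another blood cell that could be read, and it was detected on all 32 arrays. It rose with RSG in *Pparg*+/- *LysCre* iDCs by 2.81 ± 0.31 on the log2 scale (SE, n = 4 mice, adjusted p = 8.53e-05 by limma) and in *Pparg* fl/- *LysCre* iDCs by 2.29 ± 0.31 (SE, adjusted p = 0.00430 by limma). The latter call was lost without mouse 6 (adjusted p = 0.0612), with only the arrays compared in the fit (0.0530) and by the methods' t-test (0.171). In *Pparg*+/- *LysCre* macrophages the change was 1.75 ± 0.51 (SE, adjusted p = 0.136 by limma, 0.00532 with the replicate block, 0.000849 with only the arrays compared, 0.00358 by the methods' t-test, 0.118 with the scan day as a block, 0.00364 without mouse 5 and 0.0990 to 0.440 without any other single mouse), with 1.2% of the probes called. Mouse 5 was not among these mice, and leaving it out kept the change at 1.75 and lowered only its SE, to 0.26. In *Pparg* fl/- *LysCre* macrophages the change was 0.76 ± 0.51 (SE, adjusted p = 1.00 by limma and 0.419 with the replicate block). In that comparison limma called 0% of the 16620 probes, 497 had an unadjusted p below 0.05, the methods' t-test called 0 after adjustment and the replicate block 5, so the missing calls of *Ear1* and *Hba-a1* there say little about either gene. In vehicle-treated macrophages *Ear1* differed by -2.12 ± 0.51 between *Pparg* fl/- *LysCre* and *Pparg*+/- *LysCre* mice (SE, adjusted p = 0.0671 by limma, 0.0409 with the random replicate block, 0.113 with a random scan day block, 6.07e-05 without mouse 5 and 0.135 to 0.203 without any other single mouse). In vehicle-treated *Pparg*+/- *LysCre* mice *Ear1* was lower in iDCs than in macrophages, with means of 14.98 and 17.54, a change of -2.56 ± 0.44 (SE, adjusted p = 2.74e-05 by limma), and in *Pparg* fl/- *LysCre* mice the change was -0.55 ± 0.44 (SE, adjusted p = 0.344 by limma). The part of other blood cells in the level of *Eraf* was not tested.

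The genes whose pattern was most like *Eraf* were ranked by Pearson's r over the 32 arrays, which come from 8 mice and are not independent. Over the 16619 other tested probes r had a median of 0.01, and 43 probes had an r above 0.6. The 5 highest were gene models without a symbol. mCG21883.1 led with an r of 0.74, followed by mCG14298.1 at 0.71, mCG123382.1 at 0.70, mCG16060.2 at 0.69 and mCG17894.2 at 0.68. In *Pparg*+/- *LysCre* iDCs all 5 had a positive RSG difference in each of the 4 mice, with means of 4.61, 4.42, 2.97, 0.63 and 3.44 in that order. The 5 were chosen by r with *Eraf* over these same arrays, so their rise there is a description. In *Pparg* fl/- *LysCre* iDCs their mean differences were -0.23, 0.50, 1.02, 0.15 and 0.56. Of the 32 arrays, mCG21883.1 was detected on 7, mCG14298.1 on 4, mCG17894.2 on 24, and mCG123382.1 and mCG16060.2 on all 32. For mCG14298.1 the 4 were the RSG-treated *Pparg*+/- *LysCre* iDC arrays. Its 4.42 is thus taken against undetected vehicle values, its 0.50 compares undetected arrays, and neither is a measured size. The sizes for mCG21883.1, undetected on most arrays, are uncertain as well.

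This likeness was carried by the group means. Over the 8 group means r was 0.88 to 0.97 for these 5 probes, whereas the deviations from the group means gave 0.03 to 0.19. Without the 4 arrays of RSG-treated *Pparg*+/- *LysCre* iDCs, an alternative added after seeing the data, r fell to between 0.02 and 0.22. The likeness thus rested on those 4 arrays.

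**Figure D5:**
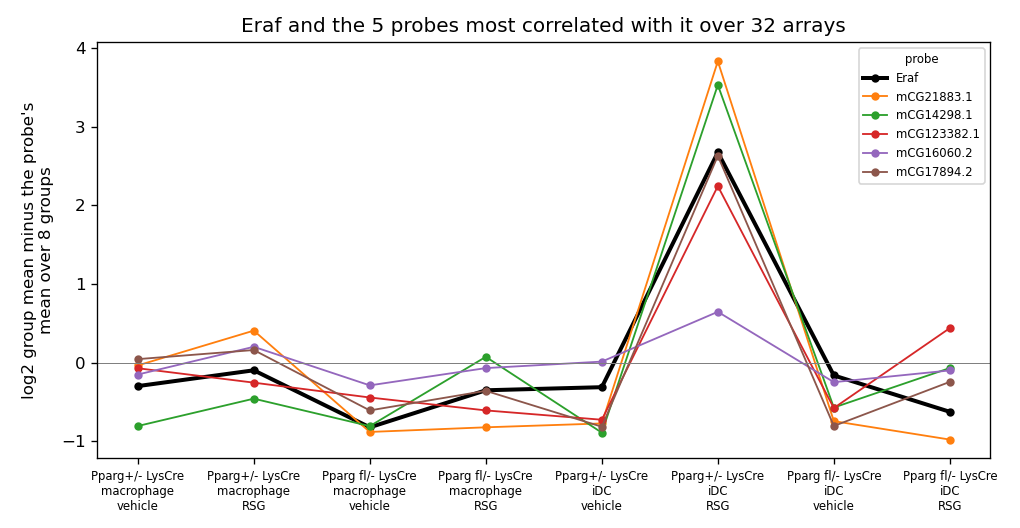
Log2 group mean of Eraf and of the 5 probes most correlated with it, each minus its own mean over 8 groups (vertical axis), by group (horizontal axis). Lines only join the points of a probe, and all 6 probes peak in RSG-treated Pparg+/- LysCre iDCs.

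Only 163 of the 16620 tested probes were given a symbol here. Among these, the highest r belonged to *Lhx2*, a LIM homeobox transcription factor, at 0.58, which was rank 64 among the 16619 other tested probes. Its RSG difference was 5.32 in *Pparg*+/- *LysCre* iDCs and 1.95 in *Pparg* fl/- *LysCre* iDCs. *Lhx2* was detected on 8 of the 32 arrays, and on at most 1 of the 4 vehicle-treated *Pparg*+/- *LysCre* iDC arrays. Its 5.32 is therefore not a measured size, and the size of its 1.95 is uncertain. It had the highest r in this group. *Lhx2* was followed by *Cebpb*, a transcription factor of myeloid cells, at 0.50 for one probe and 0.40 for another, *Aldh3a2*, a fatty aldehyde dehydrogenase, at 0.45, and *Ramp1*, a partner of the receptor for calcitonin gene-related peptide, at 0.43. The RSG differences of these 4 probes in *Pparg*+/- *LysCre* iDCs were smaller, from 0.10 to 0.89. Without the 4 arrays of RSG-treated *Pparg*+/- *LysCre* iDCs, r was -0.14 for *Lhx2*, -0.05 and -0.01 for the *Cebpb* probes, 0.04 for *Aldh3a2* and 0.005 for *Ramp1*. For *Hba-a1* r over all 32 arrays was -0.20 and for *Ear1* 0.28.

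The lowest r belonged to the gene models mCG145355.1 at -0.69, mCG19444.1 at -0.69, mCG113576.1 at -0.65, mCG115797 at -0.65 and mCG129489.1 at -0.64. In iDCs all 5 were lower with RSG than with vehicle in each of the 4 *Pparg*+/- *LysCre* mice, with mean differences of -0.37, -0.62, -1.99, -1.33 and -0.50. They too were chosen by r with *Eraf* over these same arrays, so their fall there is a description. With a symbol, the lowest were *Gprasp1*, a sorting protein of G protein-coupled receptors, at -0.54, *Frat2*, a GSK3-binding protein of Wnt signaling, at -0.51, *Nt5m*, a mitochondrial nucleotidase, at -0.50, *Mapk1ip1* at -0.50 and *Ikbip* at -0.44. Without the 4 arrays of RSG-treated *Pparg*+/- *LysCre* iDCs, r was -0.22 to -0.06 for the 5 gene models. For the probes with a symbol it was 0.002, -0.34, -0.05, -0.05 and -0.19 in that order.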

How the data were processed

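For each array the authors deposited a background-corrected signal per probe, a chemiluminescence intensity on a linear scale, with its standard deviation, an assay-normalized signal, flags and the S/N. The S/N is a score in the deposited files. A series-wide table deposited by the authors gives ratios, in which each signal is scaled per array and divided by the median of the probe. The array software and its version are not given in the sources used here.

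Signals were log2 transformed and quantile normalized over 32 arrays. A probe was tested if its S/N was at least 3 on 3 of 4 arrays of a group. Group means were fitted in limma 3.58.1 (R 4.3.3), within a cell type for RSG and genotype effects and over all arrays for cell type effects, and calls needed a Benjamini-Hochberg adjusted p under 0.05 and 1.5-fold. The fit was tested on simulated data. Other steps used Python 3.11.15 with pandas 2.3.3. A replicate number marks a mouse, and its arrays of a cell type deviated together from their groups (median r 0.284 over 16 pairs). Separate mice are the replicates, and their number limits the precision.

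*Eraf* was named through a GenBank column of the supplementary tables, the other genes through a RefSeq table of GRCm38.p6. *Eraf*, the gene lists and the alternatives were chosen with earlier results of these data known. Named were *Eraf*, listed genes with a symbol, and the 5 probes with the highest and lowest r, over all tested probes and over those with a symbol. *Aldh3a1*, *Lgals7*, *Zfp945* and mCG140638 were named after their values were seen. Alternatives were other scalings, values, filters, thresholds and tests, blocks for the mouse or the scan day, and the omission of each mouse.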

Additional observations from a re-analysis of the deposited data

Results flagged for a closer look

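In 32 sets of 4 mice (the levels of *Eraf*, *Hba-a1* and *Ear1* in each group and the within-mouse differences of *Eraf*), a mouse lay far from its group in 4 sets, where about 1 set in 20 is flagged by chance. No set of *Eraf* values was among them. *Hba-a1* was low in mouse 5, whose gap to the nearest mouse took up a share of 0.886 of the range of the group in vehicle-treated macrophages, 0.915 in RSG-treated macrophages and 0.833 in RSG-treated iDCs of *Pparg* fl/- *LysCre* mice. *Ear1* was high in mouse 3 in RSG-treated *Pparg*+/- *LysCre* macrophages, with a share of 0.839.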

How the results depend on the processing

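*Eraf* was below an S/N of 3 on all but 7 arrays, which limits the size of every difference given for it. The *Eraf* differences listed in the next paragraph were also computed under other scalings, from the deposited ratios and the assay-normalized signal, with an offset, without values of high quality flags, from group medians and without each mouse, and the RSG difference in *Pparg*+/- *LysCre* iDCs also with undetected vehicle arrays at no less than the lowest detected signal. The differences between groups that were all below background were left out. Of these values 111 lay within 1 SD over mice of the reported ones and 1 did not. The latter was the genotype difference in RSG-treated iDCs with an offset at the 10th percentile, at -2.39. The same offset, which by its construction shrinks differences from low values, gave an RSG difference of 2.20 in *Pparg*+/- *LysCre* iDCs, a cell type difference of 2.10 in RSG-treated *Pparg*+/- *LysCre* cells, and differences in RSG difference of 2.65 between genotypes and 2.08 between cell types.

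Leaving out each mouse in turn, the RSG difference ranged from 2.39 to 3.31 in *Pparg*+/- *LysCre* iDCs and from -1.11 to 0.13 in *Pparg* fl/- *LysCre* iDCs. The genotype difference in iDCs ranged from -3.45 to -3.09 with RSG and from -0.48 to 0.85 with vehicle. The cell type difference ranged from 2.33 to 3.08 in RSG-treated and from -0.32 to 0.25 in vehicle-treated *Pparg*+/- *LysCre* cells, and from -0.39 to 1.62 in vehicle-treated *Pparg* fl/- *LysCre* cells. The difference in RSG difference ranged from 2.86 to 4.09 between genotypes in iDCs and from 2.09 to 3.40 between cell types.

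For *Hba-a1* and *Ear1*, 347 alternative values stayed on their side of the thresholds in 8 comparisons each, 18 passed them only under the alternative and 3 no longer passed, with no called change reversed. The mouse as a replicate block ended no call of these genes, and the calls it added are given with the results, among them the genotype effect on *Hba-a1* in vehicle-treated macrophages (adjusted p = 0.0427 by limma).

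Spearman's rho with *Eraf* was 0.29 to 0.49 for the 5 most correlated probes, and none of them was among the 5 highest by rho. Under median scaling 4 of the 5 were still among the 5 highest, and without a mouse 2 to 5.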
